A study of Mus musculus with 12 samples.

Results

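The integrins and cadherins are families of adhesion receptors through which stromal cells hold the matrix and each other. The set described here holds every protein-coding gene of the deposited count table whose symbol names an integrin alpha or beta chain, a numbered cadherin or a numbered protocadherin, with Itga9, Cdh1, Cdh5 and Cdh19 left out by the rule. It has 52 members among 32052 genes, made up of 24 integrin chains (16 alpha and 8 beta), 17 cadherins and 11 protocadherins. The rule reads symbols and no measured value, but the members were chosen with earlier results of these data known. RNA sequencing was done on total RNA of mouse gut stromal cells, sorted as negative for EPCAM, an epithelial surface protein, and for CD45, a leukocyte surface protein. The 12 libraries form 4 groups of 3, colon GFP-positive, colon GFP-negative, small intestinal (SI) GFP-positive and SI GFP-negative cells, where GFP is a transgene reporting Rspo3, the gene of the Wnt amplifier R-spondin 3. The mice of all groups carried a C57Bl6 background and were 8 to 12 weeks old. The deposited column names carry a prefix for some libraries, 1784 for both colon libraries of replicate 2 and 3672 for all 4 libraries of replicate 3 in the colon and the SI. What a prefix marks is not stated, but libraries that share one may share a source, also between the tissues. The labels do not say whether replicates came from separate animals, so p-values measure the spread between these samples, which may be technical, and a bulk sort cannot tell fewer cells of a type from less RNA per cell.

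An integrin is a dimer of 1 alpha and 1 beta chain, and the pairing sets the ligand. Itgb1 pairs with the collagen-binding chains (Itga1, Itga2, Itga10, Itga11), with the laminin-binding chains (Itga3, Itga6, Itga7) and with several chains that read the RGD motif of fibronectin and related proteins, whereas Itgb4 pairs with Itga6 alone and forms the core of the hemidesmosome of epithelia. Itgb2 and Itgb7 are beta chains of leukocytes. Classical cadherins bind calcium and join like cells through catenins and actin, Cdh13 is held by a lipid anchor, Cdh17 belongs to the intestinal epithelium, and the non-clustered protocadherins are best known from the nervous system.

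The libraries held 6489835 to 12286054 counts. Rspo3 measured 117 to 161 CPM (counts scaled to library size) in colon GFP-positive and 2.28 to 6.51 CPM in colon GFP-negative libraries, and 191 to 196 CPM in SI GFP-positive and 4.502 to 13.7 CPM in SI GFP-negative libraries, which is the gene the sort followed and no finding. One library stood apart. SI GFP-negative replicate 3 had a summed level of 10 leukocyte markers of 12087 CPM, against at most 588 CPM in the other 11, and 304 CPM of Ptprc, the CD45 gene, against at most 10.2 CPM. Epithelial transcripts were present in spite of the gate: 12 epithelial markers summed to 378 to 1950 CPM in colon GFP-positive, 1158 to 2784 CPM in colon GFP-negative, 18.3 to 23.5 CPM in SI GFP-positive and 320 to 1091 CPM in SI GFP-negative libraries, and 10 of the 12 were called lower in SI GFP-positive cells while none was called in the colon. A list of 8 lymphatic endothelial markers summed to 18046 to 21101 CPM in colon GFP-positive against 210 to 345 CPM in colon GFP-negative libraries, and to 4304 to 14994 CPM in SI GFP-positive against 228 to 703 CPM in SI GFP-negative libraries. Fibroblast markers, the defining list of the labelled cells, were high in all libraries, between 8970 and 72388 CPM.

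Most members that differed were lower in GFP-positive cells. Of the 43 members with enough counts to test, 10 were lower and 0 higher in colon GFP-positive than GFP-negative cells, and 15 were lower and 1 higher in SI GFP-positive than GFP-negative cells. A gene was called when its Benjamini-Hochberg adjusted p over all 16757 genes tested by edgeR's quasi-likelihood test was under 0.05, and only called genes are said to rise or fall. DESeq2 also called 0 members higher in colon GFP-positive cells, and 2 members were higher there at an unadjusted p under 0.05 with either tool. In other edgeR fits Pcdh12 was called higher there, with the colon libraries alone (adjusted p = 0.000628) and with replicate numbers as a block (0.00962). Itga6 was called higher there without colon GFP-negative replicate 1 (0.0320). Of all genes tested, 8.69% were called in the colon comparison (4.62% higher and 4.06% lower) and 10.9% in the SI comparison (4.24% higher and 6.63% lower). By family, 4 of 24 integrin chains, 3 of 9 tested cadherins and 3 of 10 tested protocadherins were lower in the colon, and 8, 5 and 2 were lower in the SI. The median log2 difference of the 43 members was -0.95 in the colon and -1.71 in the SI, beside -0.03 over all genes tested in each. The 3 GFP-positive values lay wholly above or below the 3 GFP-negative values for 19 members in the colon and 17 in the SI, beside 35.6% and 21.9% of all genes. The 15 members lower in the SI include Cdh10, which had enough counts to test only through SI GFP-negative cells, where it was high. Without SI GFP-negative replicate 3 the SI comparison called 13 members, all lower, and 1567 of all 17651 genes tested. With replicate numbers as a block it called 15 members lower and 0 higher. The colon count fell to 5 without colon GFP-positive replicate 2 and to 6 without colon GFP-positive replicate 1 or colon GFP-negative replicate 2 or 3. Over all genes 816, 884, 871 and 911 were called in those fits, in that order, beside 1456 with all libraries. There were 5 members lower in both tissues (Itga4, Itgb8, Cdh2, Cdh6 and Pcdh1), 5 called in the colon comparison alone and 11 in the SI comparison alone. Calls shared by the tissues were not counted over all genes, so these numbers have no background beside them. A call in 1 tissue does not show that the tissues differ, and the test of that difference is given below for each member where it passed.

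**Figure D1:**
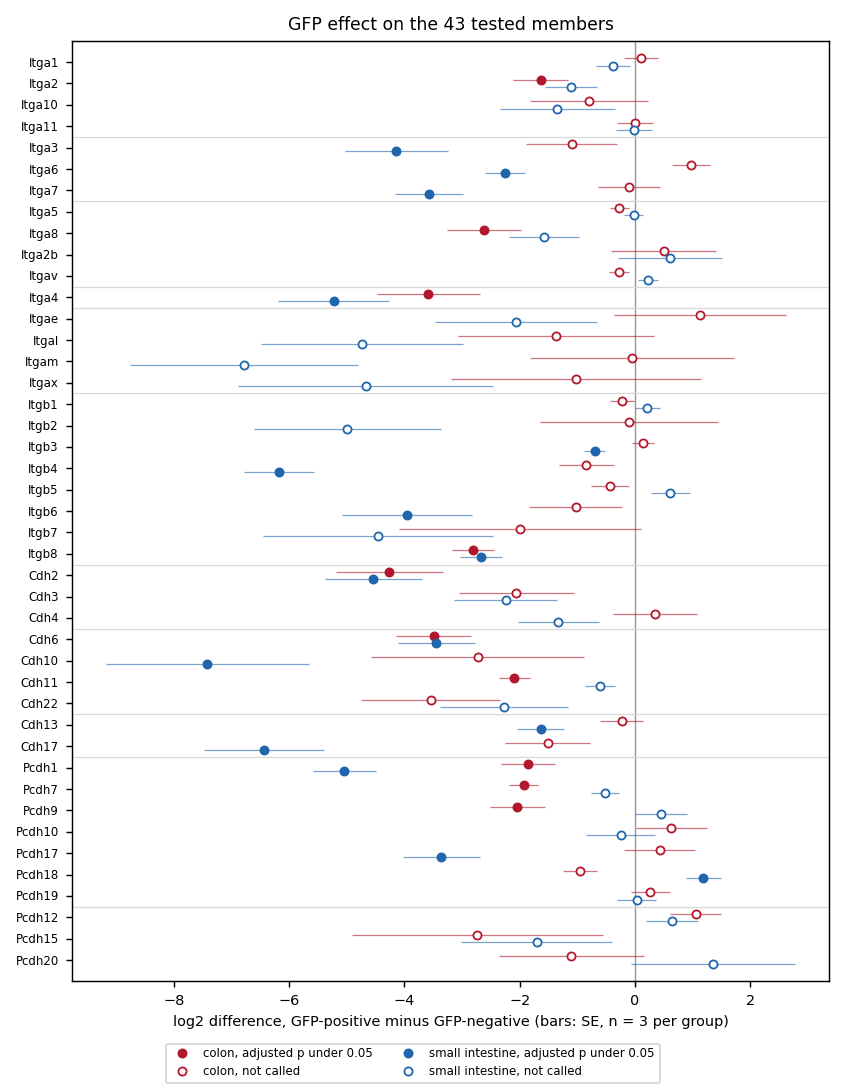
Log2 difference between GFP-positive and GFP-negative cells (horizontal axis) for the 43 tested members, grouped by subfamily, in the colon (red) and the SI (blue). Filled points have an adjusted p under 0.05 and bars are standard errors from 3 libraries per group. Filled points lie left of 0 except Pcdh18 in the SI at 1.19.

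The tissues themselves differed in few members. Between GFP-positive cells, 5 members were higher and 1 was lower in the colon than in the SI, where 4.57% of all genes were called (2.75% higher and 1.81% lower), and the groups did not overlap for 17 members, beside 24.7% of all genes. Between GFP-negative cells, 3 were higher and 1 lower in the colon, where 4.21% of all genes were called (2.2% higher and 2.01% lower), and the groups did not overlap for 16 members, beside 22.6% of all genes. The GFP effect differed between the tissues for 5 members, 4 with a higher log2 effect in the colon (Itga6, Itga7, Itgb4 and Pcdh1) and 1 with a lower effect (Pcdh18), where 2.06% of all genes were called (1.16% higher and 0.895% lower). These comparisons share libraries with the GFP comparisons of each tissue and are no separate evidence. Without SI GFP-negative replicate 3, 7 members were called in the test of the difference and 5 between the GFP-negative groups, beside 414 and 713 of all genes. The test of the difference called 10 members without SI GFP-negative replicate 2, 3 without SI GFP-negative replicate 1, and 2 without SI GFP-positive replicate 1 or 3, colon GFP-positive replicate 2 or 3, or colon GFP-negative replicate 2 or 3. Over all genes it called 1044, 145 and 69 to 165 in those fits, beside 345 with all libraries. Between the GFP-negative groups 2 were called without SI GFP-negative replicate 1, 1 without colon GFP-negative replicate 1 or 2, and 0 without colon GFP-negative replicate 3, where 18 had an unadjusted p under 0.05. Over all genes 388, 396, 234 and 187 were called in those fits, in that order, beside 706 with all libraries. In all, 22 members were called in at least 1 comparison and 21 in none. The same was not counted over all genes, so these numbers are a description of the members only.

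On the deposited log2(TPM + 1) scale, tested with limma, fewer of these calls held. They were those of Itgb8, Cdh6, Cdh11 and Pcdh7 in the colon, of Itga3, Itgb4, Cdh2 and Pcdh1 in the SI, of Itga6 and Cdh13 between GFP-positive cells and of Itgav, Cdh13 and Pcdh7 between GFP-negative cells. None of the 5 differences of effects was called there, where 11 members had an unadjusted p under 0.05.

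Start regions are shown for 3 of the members that fell in both tissues, Itgb8, Itga4 and Cdh6, and for Pcdh18, the member that rose in the SI, so that members that were lower and the one that was higher can be read side by side. RefSeq entries were found for 36 of the 52 members, and each covers 250 bases before to 50 bases after the start. The window of Itgb8 lies on the minus strand of GRCm38.p6 at chr12:119238227-119238526, that of Itga4 on the plus strand at chr2:79255176-79255475, that of Cdh6 on the minus strand at chr15:13173626-13173925 and that of Pcdh18 on the minus strand at chr3:49757267-49757566. They are written 5′ to 3′ with the GC box, GGGCGG on either strand, in capitals.
Itgb8: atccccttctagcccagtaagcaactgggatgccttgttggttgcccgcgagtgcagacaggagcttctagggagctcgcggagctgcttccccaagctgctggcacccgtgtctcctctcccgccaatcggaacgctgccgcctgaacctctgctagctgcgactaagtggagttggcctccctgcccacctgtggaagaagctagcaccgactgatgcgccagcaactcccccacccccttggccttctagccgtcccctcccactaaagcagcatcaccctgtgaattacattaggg
Itga4: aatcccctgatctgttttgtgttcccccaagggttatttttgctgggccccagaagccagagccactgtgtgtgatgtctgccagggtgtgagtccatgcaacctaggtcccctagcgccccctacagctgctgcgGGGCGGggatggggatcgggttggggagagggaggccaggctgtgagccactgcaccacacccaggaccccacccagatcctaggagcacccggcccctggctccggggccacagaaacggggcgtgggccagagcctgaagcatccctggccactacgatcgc
Cdh6: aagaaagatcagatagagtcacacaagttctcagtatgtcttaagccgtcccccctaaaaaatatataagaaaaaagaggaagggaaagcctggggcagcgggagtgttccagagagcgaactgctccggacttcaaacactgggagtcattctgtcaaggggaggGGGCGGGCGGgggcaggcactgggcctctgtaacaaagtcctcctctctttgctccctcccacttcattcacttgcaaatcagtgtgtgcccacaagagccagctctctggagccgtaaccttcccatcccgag
Pcdh18: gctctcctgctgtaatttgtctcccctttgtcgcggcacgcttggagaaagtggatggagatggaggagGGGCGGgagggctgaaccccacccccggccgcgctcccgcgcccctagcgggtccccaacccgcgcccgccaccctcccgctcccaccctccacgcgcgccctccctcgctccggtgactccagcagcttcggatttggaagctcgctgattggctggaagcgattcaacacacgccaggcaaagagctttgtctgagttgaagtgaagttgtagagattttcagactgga
Cdh6 has 2 overlapping GC boxes, Itga4 and Pcdh18 have 1 each and Itgb8 has none. The Itgb8 window lies wholly inside the gene position given below, which starts at 119238802 on the minus strand. Its RefSeq start thus differs from the start of that gene position. The motif was present in 15 of the 36 member windows and in 35.7% of 32851 RefSeq windows of the same length, and overlapping matches were counted separately. TATAAA was found on neither strand of the 4 windows, beside 13.6% of all windows. A match is a description of these letters and not a site.

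Among integrins the shared and matrix-binding chains were the most abundant. On a scale that corrects for gene length, TPM (transcript abundance as a share of the library) rescaled over protein-coding genes, Itgb1 (ENSMUSG00000025809, chromosome 8, 128685654 to 128733200, plus strand, with all gene positions on GRCm38) averaged 372 TPM over the 12 libraries, 24.8% of the summed level of the 52 members, and ranked first in each group. Itgb5, a partner of Itgav, followed with 214 TPM, and Itgav, Itga5, the fibronectin receptor chain, and Itga11, a collagen-binding chain of fibroblasts, averaged 110, 78.4 and 53.5 TPM. Within the beta chains Itgb1 stood above Itgb5 in the colon, with 385 ± 3.6 against 143 ± 24.1 TPM in GFP-positive and 499 ± 41.2 against 224 ± 51.7 TPM in GFP-negative cells (SD, n = 3). In SI GFP-positive cells the values were 309 ± 43.3 TPM for Itgb1 and 307 ± 60.9 TPM for Itgb5, so the order of these chains was not resolved there beyond their spread.

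**Figure D2:**
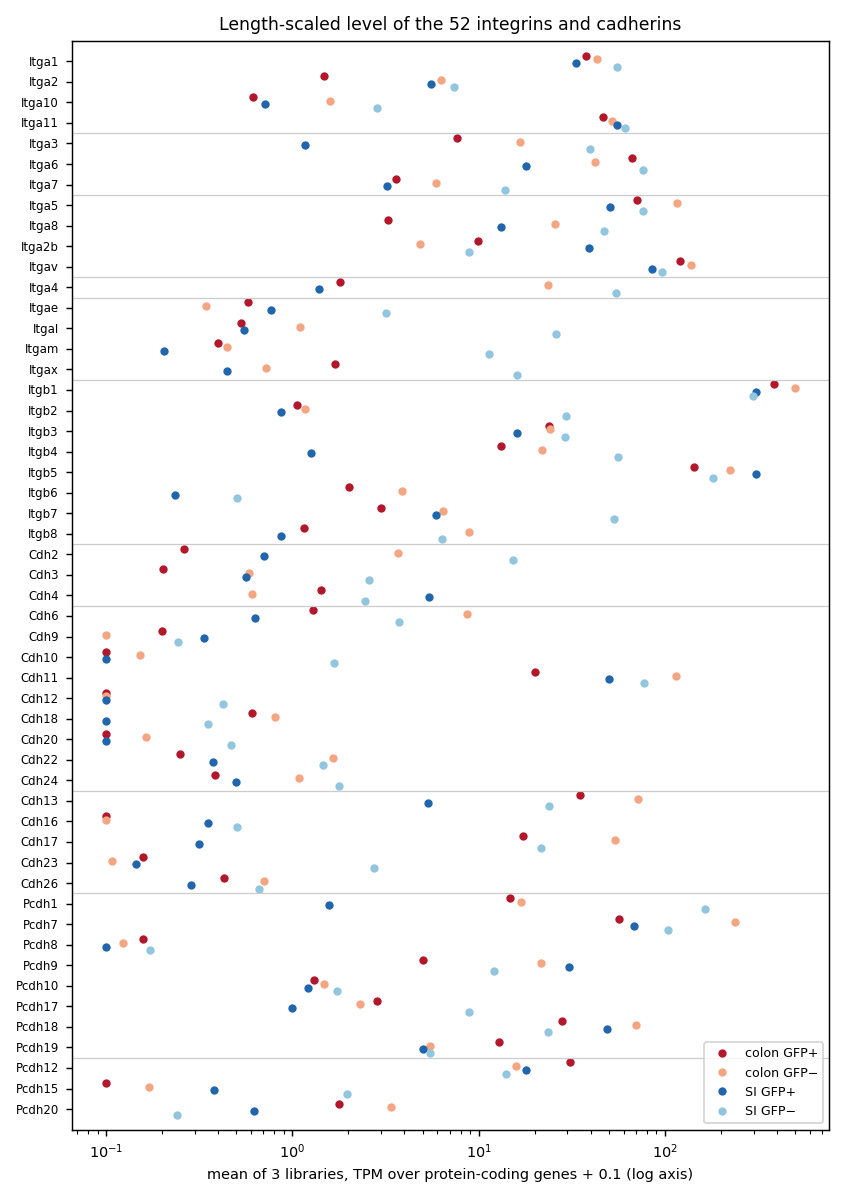
Mean level of each of the 52 members in each group, as TPM over protein-coding genes plus 0.1 on a log axis, grouped by subfamily. Itgb1 lies farthest right in each group, level with Itgb5 in SI GFP-positive cells, and the 6 leukocyte chains Itgae, Itgal, Itgam, Itgax, Itgb2 and Itgb7 lie below 10 TPM outside SI GFP-negative cells.

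Most of these abundant chains were not called in any comparison. Itgb1 measured 797, 798 and 774 CPM in colon GFP-positive and 932, 966 and 878 CPM in colon GFP-negative libraries, and 672, 613 and 718 CPM in SI GFP-positive and 622, 707 and 400 CPM in SI GFP-negative libraries, each in the order of replicates 1 to 3. The colon groups did not overlap, but Itgb1 was not called. Itga11 (chromosome 9, 62677826 to 62783982, plus strand) measured 118, 135 and 129 CPM in colon GFP-positive and 110, 160 and 113 CPM in colon GFP-negative libraries, and 136, 125 and 216 CPM in SI GFP-positive and 107, 255 and 121 CPM in SI GFP-negative libraries. These groups overlapped throughout. Itga1, the other abundant collagen-binding chain, averaged 193 ± 2.86 CPM in colon GFP-positive, 180 ± 44.6 CPM in colon GFP-negative, 165 ± 17.8 CPM in SI GFP-positive and 216 ± 103 CPM in SI GFP-negative cells. Itga5 averaged 119 ± 14.1, 143 ± 11.5, 91.9 ± 12.2 and 93.1 ± 7.08 CPM in the same order of groups, and Itgb5 126 ± 5.1, 170 ± 13.2, 267 ± 67.7 and 175 ± 107 CPM. With all 12 libraries and no block, edgeR called none of these 5 chains. DESeq2 called Itga5 (adjusted p = 0.00355) and Itgb1 (0.0051) higher in colon than in SI GFP-negative cells. It called Itgb5 lower in colon than in SI GFP-positive cells (0.0212). Limma on the log2(TPM + 1) scale also called Itgb1 higher in colon GFP-negative cells (0.0163), as did edgeR with replicates as a block for Itga5 (0.0394). Without SI GFP-negative replicate 2, Itgb5 was called higher in SI GFP-positive cells (log2 1.24, adjusted p = 0.00403) with a lower effect in the colon (-1.67, 0.00765), and Itgb1 (0.87, 0.0246) and Itga5 (0.67, 0.041) were called higher in colon than in SI GFP-negative cells.

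Itgav and Itgb3, partners in the receptor for vitronectin, did change. Itgav (chromosome 2, 83724397 to 83806916, plus strand) measured 230, 267 and 256 CPM in colon GFP-negative libraries against 147, 156 and 161 CPM in SI GFP-negative libraries, and was 0.70 ± 0.17 higher on the log2 scale (SE, adjusted p = 0.0377). The groups did not overlap. In GFP-positive cells it had 192, 218 and 211 CPM in the colon and 192, 146 and 205 CPM in the SI, which overlapped. The call between GFP-negative groups was lost in 5 of 6 fits that left out 1 library, all but that without SI GFP-negative replicate 2, with adjusted p from 0.0508 (without SI GFP-negative replicate 3) to 0.141 (without colon GFP-negative replicate 2). Itgb3 was lower in SI GFP-positive than GFP-negative cells, with 54.9 ± 11.3 CPM against 89.1 ± 16.9 CPM (SD, n = 3 each) and a log2 difference of -0.70 ± 0.18 (SE, adjusted p = 0.0286). This call was lost without SI GFP-positive replicate 1 (adjusted p = 0.0958), without SI GFP-positive replicate 3 (0.110) or without SI GFP-negative replicate 2 (0.0676).

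The laminin-binding chains and Itgb4 were lower with GFP in the SI. Itga3, Itga6, Itga7 and Itgb4 were all lower in SI GFP-positive than SI GFP-negative cells, and none of the 4 was called in the colon. Itgb4 (ENSMUSG00000020758, chromosome 11, 115974709 to 116008412, plus strand) measured 12.0, 20.07 and 33.9 CPM in colon GFP-positive and 58.7, 22.5 and 37.6 CPM in colon GFP-negative libraries, whose ranges overlapped. It measured 1.41, 1.08 and 2.48 CPM in SI GFP-positive and 168, 130 and 58.5 CPM in SI GFP-negative libraries, which lay far apart. The log2 difference was -0.85 ± 0.48 in the colon (adjusted p = 0.384) and -6.17 ± 0.61 in the SI (SE, adjusted p = 0.000249), and the effects differed by 5.33 ± 0.75 (adjusted p = 0.00679). Between GFP-positive cells Itgb4 was 13.4-fold higher in the colon than in the SI (log2 3.74 ± 0.57, adjusted p = 0.0032). All 3 calls were kept in each fit that left out 1 library.

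Itga6, the partner of Itgb4 and of Itgb1 (ENSMUSG00000027111, chromosome 2, 71745616 to 71858416, plus strand), had 107, 111 and 117 CPM in colon GFP-positive and 84.2, 34.1 and 53.2 CPM in colon GFP-negative libraries. It had 22.9, 27.4 and 19.6 CPM in SI GFP-positive and 164, 99.7 and 69.9 CPM in SI GFP-negative libraries. The GFP-positive values thus lay above the GFP-negative values in the colon and below them in the SI. The log2 difference of 0.97 ± 0.33 in the colon was not called (adjusted p = 0.103, and 0.0320 without colon GFP-negative replicate 1), that of -2.26 ± 0.34 in the SI was (adjusted p = 0.00148), and the effects differed by 3.22 ± 0.48 (adjusted p = 0.00718). Between GFP-positive cells Itga6 was 4.79-fold higher in the colon than in the SI (log2 2.26 ± 0.34, adjusted p = 0.00253), with no overlap. These 3 calls were kept in each fit that left out 1 library. Of the 8 lymphatic endothelial markers, 7 were called higher in colon GFP-positive cells and none was at 0 throughout a group. Their sums were highest in the colon GFP-positive libraries. In the SI 6 were called higher and 1 lower in GFP-positive cells, where Itga6 was lower. The part of these markers in the Itga6 result was not tested. On the length scale Itga6 averaged 66.5 ± 9.93 TPM and Itgb4 13.1 ± 3.32 TPM in colon GFP-positive cells, against 41.9 ± 16.3 and 21.7 ± 17.2 TPM in colon GFP-negative cells.

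Itga7, a laminin-binding chain best known from muscle (chromosome 10, 128933818 to 128958282, plus strand), measured 4.18, 7.53 and 10.7 CPM in colon GFP-positive and 11.7, 6.28 and 6.21 CPM in colon GFP-negative libraries, which overlapped. It measured 1.66, 1.77 and 3.78 CPM in SI GFP-positive and 37.4, 38.5 and 9.49 CPM in SI GFP-negative libraries, a log2 difference of -3.57 ± 0.59 (adjusted p = 0.0022). The effects differed by 3.47 ± 0.78 (adjusted p = 0.0424), but with replicate numbers as a block the adjusted p was 0.154. The call of this difference was also lost in 9 of 12 fits that left out 1 library, with adjusted p from 0.0509 (without colon GFP-negative replicate 1) to 0.122 (without colon GFP-negative replicate 2), and kept without SI GFP-negative replicates 2 or 3 or colon GFP-positive replicate 1. Smooth muscle markers moved with Itga7 in the SI, at 1015 to 1216 CPM in GFP-positive and 1591 to 4395 CPM in GFP-negative libraries with 5 of 8 called lower. So did pericyte markers, at 484 to 668 CPM in SI GFP-positive and 568 to 1984 CPM in SI GFP-negative libraries with 4 of 8 called lower. In the colon 6 of 8 smooth muscle and 4 of 8 pericyte markers were also called lower in GFP-positive cells. Smooth muscle sums there were 646 to 772 CPM in GFP-positive and 3062 to 4046 CPM in GFP-negative libraries. Pericyte sums there were 219 to 235 and 498 to 822 CPM. Itga7 was not called in the colon (log2 -0.11 ± 0.54, adjusted p = 0.954). Glial markers summed to 2.36 to 6.01 CPM in SI GFP-positive and 175 to 377 CPM in SI GFP-negative libraries, with 7 of 7 tested called lower. No smooth muscle or pericyte marker was at 0 throughout a group, and the part of these lists in the result was not tested. Exons of Itga7 overlap those of Mettl7b on the other strand, which had 535 counts against 1182 for Itga7, and the sources used here do not state whether counting used strand. Itga3, which joins Itgb1 at the base of epithelia, averaged 8.89 ± 8.38 CPM in colon GFP-positive and 19.1 ± 8.94 CPM in colon GFP-negative cells. SI cells had 2.04 ± 0.896 CPM in GFP-positive and 36.0 ± 19.2 CPM in GFP-negative cells, a log2 difference of -4.14 ± 0.89 (adjusted p = 0.0131). That call was lost without SI GFP-positive replicate 1 (adjusted p = 0.0621) or 3 (0.0558). Without colon GFP-positive replicate 1, Itga3 was called higher in colon than in SI GFP-positive cells (log2 2.69, adjusted p = 0.0246) and with a difference of effects of 3.57 (0.0446).

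Epithelial markers moved with Itga3, Itga6, Itgb4 and Itgb6 in the SI, where 10 of 12 were lower in GFP-positive cells, and 9 of 12 were higher in colon than in SI GFP-positive cells. Epcam itself measured 18.0, 50.8 and 170 CPM in colon GFP-positive and 175, 75.7 and 182 CPM in colon GFP-negative libraries, and 0, 2.17 and 0.472 CPM in SI GFP-positive and 43.3, 18.5 and 90.5 CPM in SI GFP-negative libraries. No epithelial marker was at 0 throughout a group. In GFP-negative libraries the epithelial markers summed to 1158 to 2784 CPM in the colon and 320 to 1091 CPM in the SI. Of the 12, 1 was called there, lower in the colon. The part of these markers in these integrin differences was not tested. Itga7 and Itgb4 were also -1.82 ± 0.54 and -1.59 ± 0.48 on the log2 scale between colon and SI GFP-negative cells, without a call (adjusted p = 0.0832 and 0.0931). Without SI GFP-negative replicate 3 both were called lower in the colon, at -2.23 (adjusted p = 0.0158) and -1.91 (0.0349), as was Pcdh17 at -2.34 (0.0303).

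Itgb8, the beta chain that with Itgav activates latent TGF-beta (ENSMUSG00000025321, chromosome 12, 119158022 to 119238802, minus strand), fell in both tissues. It measured 5.27, 3.70 and 5.14 CPM in colon GFP-positive against 28.7, 28.7 and 42.4 CPM in colon GFP-negative libraries. The SI values were 4.99, 1.87 and 3.43 CPM in GFP-positive against 29.0, 20.5 and 16.9 CPM in GFP-negative libraries. Neither pair of groups overlapped. The fold was 7.04 in the colon (log2 -2.82 ± 0.36, adjusted p = 0.00054) and 6.40 in the SI (log2 -2.68 ± 0.36, adjusted p = 0.000703), and both calls were kept in each fit that left out 1 library. Itgb6, the other partner of Itgav that activates TGF-beta and a chain of epithelia, was scarce. It measured 1.21, 1.98 and 3.77 CPM in colon GFP-positive and 4.40, 3.54 and 6.33 CPM in colon GFP-negative libraries, and 0, 0 and 0.118 CPM in SI GFP-positive and 1.08, 0.209 and 0.965 CPM in SI GFP-negative libraries. The SI GFP-positive group thus held 1 count in all. Against 17 counts in SI GFP-negative cells this was a ratio of 0.0463 (95% exact interval 0.00111 to 0.295), called at adjusted p = 0.0397 but not with replicates as a block (0.0549). The SI call was lost without SI GFP-positive replicate 1 (adjusted p = 0.121) or 2 (0.116) and without SI GFP-negative replicate 1 (0.098) or 3 (0.079). Colon GFP-positive cells held 59 counts, a ratio of 71.1 to SI GFP-positive cells (interval 12.3 to 2855), called at adjusted p = 0.0123 (0.0562 without SI GFP-positive replicate 1). These intervals cover counting error only.

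Itga8, the receptor chain for nephronectin found on smooth muscle and other contractile stroma, fell in colon GFP-positive cells, with 4.83 ± 1.19 CPM against 29.7 ± 9.39 CPM (SD, n = 3 each) and a log2 difference of -2.62 ± 0.65 (adjusted p = 0.0274). That call was lost in 5 of 6 fits that left out 1 library, all but that without colon GFP-negative replicate 1, with adjusted p from 0.0617 (without colon GFP-negative replicate 3) to 0.113 (without colon GFP-positive replicate 1). DESeq2 (0.000165), the replicate block (0.000688) and an edgeR fit of the colon libraries alone (0.000109) kept the colon call of Itga8. In SI cells it had 16.6 ± 13.1 CPM in GFP-positive and 49.996 ± 40.2 CPM in GFP-negative cells, a log2 difference of -1.58 ± 0.61 with adjusted p = 0.133, or 0.00423 with replicates as a block. Without SI GFP-positive replicate 1 the adjusted p was 0.0301. Itga2, a collagen-binding chain, fell in colon GFP-positive cells, with 5.52 ± 3.70 CPM against 17.2 ± 1.08 CPM and a log2 difference of -1.64 ± 0.47 (adjusted p = 0.0492). It kept its call in 1 of 6 fits, that without colon GFP-positive replicate 3, and adjusted p otherwise ran from 0.0975 (without colon GFP-negative replicate 1) to 0.201 (without colon GFP-positive replicate 2). Smooth muscle markers moved with Itga8: their sum was 646 to 772 CPM in colon GFP-positive and 3062 to 4046 CPM in colon GFP-negative libraries, with 6 of 8 called lower and none at 0 throughout a group, and their part in the result was not tested. Itga10 and Itga2b, the platelet chain, averaged under 5 CPM in each group and were not called. The length-scaled level of Itga2b in SI GFP-positive cells, 38.8 ± 36.6 TPM, rests on 2.98 ± 1.09 CPM.

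Itga4, which pairs with Itgb1 or Itgb7 and binds VCAM1, fibronectin and MAdCAM-1 (ENSMUSG00000027009, chromosome 2, 79255426 to 79333123, plus strand), was lower in GFP-positive cells of both tissues. It measured 5.49, 3.57 and 5.26 CPM in colon GFP-positive against 56.9, 56.4 and 59.7 CPM in colon GFP-negative libraries. Its SI values were 3.08, 0.788 and 6.97 CPM in GFP-positive against 59.3, 31.0 and 312 CPM in GFP-negative libraries, of which the last is the leukocyte-rich one. Neither pair of groups overlapped. The 10 leukocyte markers, none at 0 throughout a colon group, summed to 470 to 544 CPM in colon GFP-positive and 353 to 588 CPM in colon GFP-negative libraries. The log2 difference was -3.59 ± 0.90 in the colon (adjusted p = 0.0348) and -5.23 ± 0.96 in the SI (adjusted p = 0.00715), or -3.66 without SI GFP-negative replicate 3 (adjusted p = 0.00237). The SI call was kept in each fit that left out 1 library but not in a fit of the 6 SI libraries alone (0.101). The colon call was lost with no filter on low counts (0.108) and in all 6 fits without 1 library, with adjusted p from 0.0921 (without colon GFP-negative replicate 1) to 0.154 (without colon GFP-positive replicate 2). It was also lost with limma on the log2(TPM + 1) scale (0.0904). DESeq2 (0.000711), the replicate block (0.00041) and an edgeR fit of the colon libraries alone (1.0e-06) kept the colon call. Exons of Itga4 overlap those of Cerkl on the other strand, which had 124 counts against 4309 for Itga4.

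The leukocyte chains were low in all but 1 library. Itgal, the alpha chain of LFA-1 (chromosome 7, 127296260 to 127335138, plus strand), measured 0.440, 1.45 and 0.914 CPM in colon GFP-positive and 1.32, 1.37 and 4.56 CPM in colon GFP-negative libraries, and 0.749, 0 and 2.95 CPM in SI GFP-positive and 0.962, 2.40 and 94.1 CPM in SI GFP-negative libraries. Itgam, the alpha chain of Mac-1, had 82.0 CPM in SI GFP-negative replicate 3 and 0 to 1.94 CPM in the other 11, and Itgb2, the beta chain of both, had 109 CPM there and 0.361 to 2.92 CPM elsewhere. Itgax, Itgb7 and Itgae, whose product with Itgb7 binds E-cadherin, had 57.7, 91.8 and 17.8 CPM there and at most 2.36, 4.45 and 2.53 CPM elsewhere. That library held between 55.0% and 87.6% of the counts of each of these 6 chains over the series. With all 12 libraries and no block, edgeR called none of the 6, of which 3 (Itgal, Itgam and Itgb2) had an unadjusted p under 0.05 in the SI comparison, and DESeq2 called Itgb2 lower in SI GFP-positive cells (adjusted p = 0.00329) and lower in colon than in SI GFP-negative cells (0.0136). The log2 differences in the SI were -6.78 ± 1.98 for Itgam (adjusted p = 0.0556), -4.99 ± 1.62 for Itgb2 (0.0839), -4.74 ± 1.75 for Itgal (0.130) and -4.67 ± 2.21 for Itgax (0.240). Without SI GFP-negative replicate 3 they were -2.47, -0.49, -0.46 and 1.40, with adjusted p of at least 0.451. Itgam and Itgb2 were called without SI GFP-negative replicate 1 (adjusted p = 0.0401 and 0.0205) or 2 (0.0239 and 0.0405), and Itgam and Itgax with replicates as a block (0.0098 and 0.0103).

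**Figure D3:**
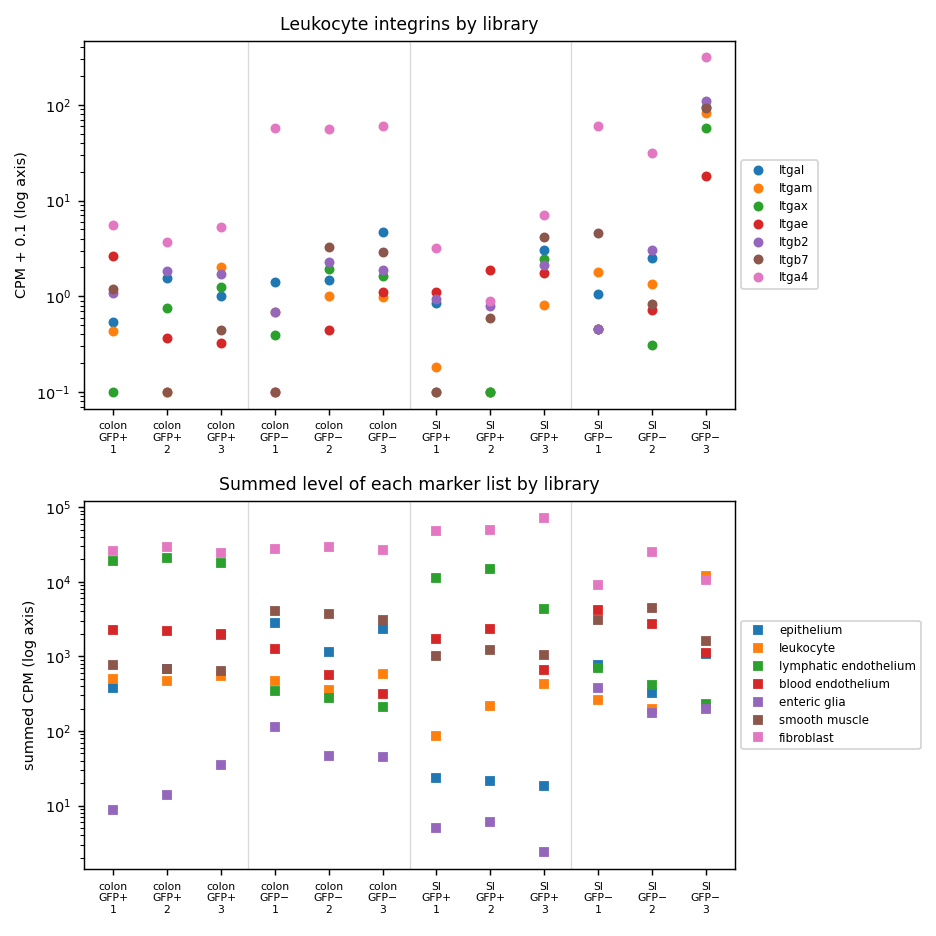
Upper panel, 7 integrin chains of leukocytes by library (CPM + 0.1, log axis), and lower panel, the summed CPM of 7 marker lists by library (log axis), with libraries ordered by group. The 7 chains are highest in SI GFP-negative replicate 3, where the leukocyte list reaches 12087 CPM, and Itga4 is also at 31.0 to 59.7 CPM in the other GFP-negative libraries.

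Among the cadherins, Cdh2 and Cdh6 fell with GFP in both tissues. Cdh2, or N-cadherin, of neural and mesenchymal cells (ENSMUSG00000024304, chromosome 18, 16588877 to 16809246, minus strand), measured 0.549, 0 and 0.571 CPM in colon GFP-positive against 14.1, 5.94 and 3.04 CPM in colon GFP-negative libraries. Its SI values were 2.496, 1.38 and 0.236 CPM in GFP-positive against 46.9, 33.3 and 19.0 CPM in GFP-negative libraries. The log2 difference was -4.26 ± 0.92 in the colon (adjusted p = 0.013) and -4.54 ± 0.84 in the SI (adjusted p = 0.00512). Cdh6, or K-cadherin, a type II cadherin (ENSMUSG00000039385, chromosome 15, 13028701 to 13173675, minus strand), measured 0.659, 1.58 and 5.26 CPM in colon GFP-positive against 30.9, 34.4 and 19.5 CPM in colon GFP-negative libraries. SI libraries had 0.832, 1.77 and 1.18 CPM in GFP-positive against 22.7, 10.03 and 8.68 CPM in GFP-negative libraries. For both genes the GFP-positive libraries lay below all GFP-negative libraries of the same tissue. The log2 difference of Cdh6 was -3.49 ± 0.65 in the colon (adjusted p = 0.00501) and -3.44 ± 0.66 in the SI (adjusted p = 0.00585). The 4 calls of Cdh2 and Cdh6 were kept in each fit that left out 1 library. With no filter on low counts the colon call of Cdh2 was lost (adjusted p = 0.0548), as it was on the log2(TPM + 1) scale (0.282).

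Cdh10, another type II cadherin, had no count in SI GFP-positive libraries and 3.37, 1.78 and 2.25 CPM in SI GFP-negative libraries, at least 25.2-fold lower when 3 counts over the group are taken as the floor (adjusted p = 0.0286, or 0.114 with replicates as a block). Of its 61 counts, 59 were in SI GFP-negative libraries. It passed the filter on low counts through that group alone and so had to differ, and its call is a description only. The call was lost in 5 of 6 fits that left out 1 library, all but that without SI GFP-negative replicate 2, with adjusted p from 0.0647 (without SI GFP-negative replicate 3) to 0.0843 (without SI GFP-negative replicate 1). Enteric glial markers moved with Cdh2 and Cdh10, and with Cdh6 within each tissue. The 8 glial markers summed to 8.79 to 35.1 CPM in colon GFP-positive and 45.3 to 111 CPM in colon GFP-negative libraries, and to 2.36 to 6.01 CPM in SI GFP-positive and 175 to 377 CPM in SI GFP-negative libraries. Of the 7 tested, 2 were lower in the colon and 7 in the SI, and Foxd3 was at 0 in SI GFP-positive cells. Between the GFP-negative groups Cdh6 had the reverse order of the glial sums, with 28.3 CPM in the colon and 13.8 CPM in the SI, without a call. The 8 telocyte markers described for Cdh11 below summed to 1004 to 1029 CPM in colon and 243 to 393 CPM in SI GFP-negative libraries. Of these, 7 were called lower in colon and 1 in SI GFP-positive cells. The part of both lists in the cadherin differences was not tested.

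Cdh11, or OB-cadherin, the type II cadherin of mesenchymal cells (ENSMUSG00000031673, chromosome 8, 102632095 to 102785642, minus strand), was the most abundant cadherin of the set, with a mean of 65.4 TPM over the libraries. It measured 52.4, 48.7 and 57.4 CPM in colon GFP-positive against 210, 245 and 223 CPM in colon GFP-negative libraries, and 103, 66.9 and 142 CPM in SI GFP-positive against 136, 209 and 131 CPM in SI GFP-negative libraries. The colon groups lay far apart and the SI groups overlapped. The colon log2 difference was -2.09 ± 0.27 (adjusted p = 0.00052, 4.27-fold lower), kept in each fit that left out 1 library. The test of the difference between tissues gave -1.49 ± 0.37 (adjusted p = 0.0583), and called it without SI GFP-positive replicate 2 (0.0218) or SI GFP-negative replicate 2 (0.0117). Between GFP-positive cells the colon values lay below the SI values, at -0.98 ± 0.26 (adjusted p = 0.0534, and 0.0151 without SI GFP-positive replicate 2). A list of 8 telocyte markers moved with Cdh11 in the colon, with 113 to 153 CPM in GFP-positive and 1004 to 1029 CPM in GFP-negative libraries, 7 of 8 called lower and none at 0 throughout a group. Its part in the result was not tested.

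Cdh13, or T-cadherin, a receptor of adiponectin (ENSMUSG00000031841, chromosome 8, 118283733 to 119324921, plus strand), was higher in the colon in both GFP states. It measured 46.8, 39.0 and 40.9 CPM in colon GFP-positive and 58.8, 41.8 and 48.4 CPM in colon GFP-negative libraries, and 3.58, 2.86 and 8.39 CPM in SI GFP-positive and 20.7, 17.03 and 7.88 CPM in SI GFP-negative libraries. Every colon library lay above every SI library. The colon was higher by 3.11 ± 0.42 on the log2 scale in GFP-positive cells (adjusted p = 0.00157, 8.61-fold), kept in each fit that left out 1 library, and by 1.70 ± 0.39 in GFP-negative cells (adjusted p = 0.0313). The second call was lost without SI GFP-negative replicate 3 (adjusted p = 0.0501) and without colon GFP-negative replicates 1 (0.0807), 2 (0.0639) or 3 (0.0922). In the SI it was lower in GFP-positive cells by a log2 difference of -1.64 ± 0.40 (adjusted p = 0.0204, or 0.073 with replicates as a block), a call lost without SI GFP-positive replicate 1 (0.0868) or 2 (0.0806) or SI GFP-negative replicate 1 (0.0692).

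Cdh17, or LI-cadherin, of intestinal epithelium (chromosome 4, 11758147 to 11817895, plus strand), measured 9.999, 18.8 and 67.5 CPM in colon GFP-positive and 119, 51.4 and 106 CPM in colon GFP-negative libraries. Its SI values were 0.166, 0.985 and 0.118 CPM in GFP-positive and 45.7, 14.1 and 54.3 CPM in GFP-negative libraries. The colon groups overlapped and the SI groups did not. Its log2 difference in the SI was -6.43 ± 1.04 (adjusted p = 0.00346) and it was 6.19 ± 1.03 higher in colon than in SI GFP-positive cells (adjusted p = 0.00768), both kept in each fit that left out 1 library. The test of the difference between tissues gave 4.92 ± 1.26 (adjusted p = 0.079, and 0.0373 without SI GFP-negative replicate 2). The 12 epithelial markers moved the same way, and their part in the result was not tested. Of the other tested cadherins, Cdh3, Cdh4 and Cdh22 averaged at most 8.01 CPM in a group. With all 12 libraries and no block, edgeR called none of them. Cdh22 was called lower in colon GFP-positive than GFP-negative cells by DESeq2 (adjusted p = 0.0129) and by edgeR with the colon libraries alone (0.0190). Its GFP-positive values lay below its GFP-negative values in both tissues. DESeq2 called Cdh4 lower in colon than in SI GFP-negative cells (0.0283).

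**Figure D4:**
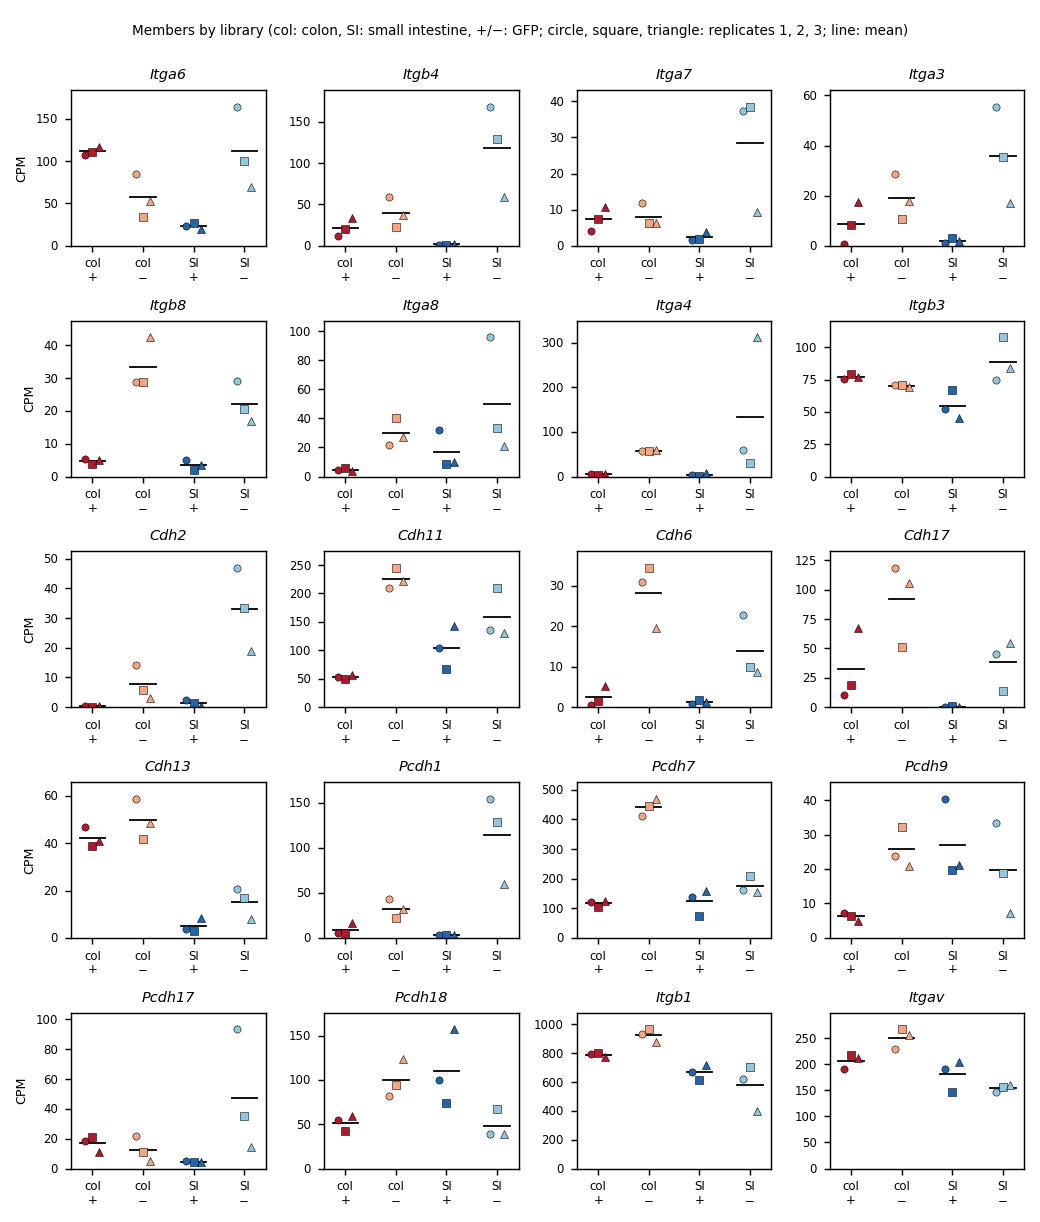
CPM of 20 members in each of the 12 libraries, with the mean of each group as a line, in panels that start at 0. Itgb4, Itga7 and Pcdh17 are high in SI GFP-negative libraries, Cdh11 and Pcdh7 in colon GFP-negative libraries and Cdh13 in all 6 colon libraries, and Pcdh18 has the opposite order in the 2 tissues.

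Of the 10 tested non-clustered protocadherins, 3 fell in colon GFP-positive cells (Pcdh1, Pcdh7 and Pcdh9), and 2 fell and 1 rose in SI GFP-positive cells (Pcdh1, Pcdh17 and Pcdh18). Pcdh7 (ENSMUSG00000029108, chromosome 5, 57717967 to 58133230, plus strand) was the most abundant, with a mean of 117 TPM over the libraries. It measured 122, 103 and 124 CPM in colon GFP-positive against 413, 446 and 470 CPM in colon GFP-negative libraries, and 137, 75.5 and 158 CPM in SI GFP-positive against 163, 210 and 155 CPM in SI GFP-negative libraries. Colon GFP-negative cells thus stood above the other 3 groups. So did the 8 telocyte markers, which summed to 113 to 153 CPM in colon GFP-positive, 1004 to 1029 CPM in colon GFP-negative, 132 to 284 CPM in SI GFP-positive and 243 to 393 CPM in SI GFP-negative libraries, with none at 0 throughout a group. Of the 8, 7 were called lower in colon GFP-positive than in colon GFP-negative cells and 5 higher in colon than in SI GFP-negative cells, and their part in the result was not tested. The colon log2 difference was -1.93 ± 0.25 (adjusted p = 0.000559, 3.81-fold lower), kept in each fit that left out 1 library, and GFP-negative cells of the colon were 2.52-fold above those of the SI (log2 1.33 ± 0.25, adjusted p = 0.0116, and 0.0518 without colon GFP-negative replicate 3). The test of the difference between tissues gave -1.42 ± 0.34 (adjusted p = 0.0559, with a call without SI GFP-positive replicate 2, 0.0109, or SI GFP-negative replicate 2, 0.0213). Pcdh9 (chromosome 14, 93013410 to 93890679, minus strand) was also lower in colon GFP-positive cells, with 7.36, 6.34 and 5.03 CPM in GFP-positive against 23.9, 32.3 and 20.9 CPM in GFP-negative libraries. The SI libraries had 40.4, 19.6 and 21.3 CPM in GFP-positive and 33.4, 18.9 and 7.07 CPM in GFP-negative libraries, which overlapped. It was lower in colon GFP-positive cells than in colon GFP-negative cells (log2 -2.04 ± 0.48, adjusted p = 0.0171) and than in SI GFP-positive cells (log2 -2.12 ± 0.48, adjusted p = 0.0239). The first call was lost without colon GFP-positive replicates 2 (adjusted p = 0.0769) or 3 (0.067) or colon GFP-negative replicate 2 (0.0659), and the second without SI GFP-positive replicate 1 (0.0958) or colon GFP-positive replicates 1 (0.0605), 2 (0.0992) or 3 (0.112). The test of the difference between tissues gave -2.49 ± 0.65 for Pcdh9 (adjusted p = 0.0731), with a call under the replicate block (0.0375) and without SI GFP-negative replicates 1 (0.0409) or 3 (0.0486).

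Pcdh1 (ENSMUSG00000051375, chromosome 18, 38185914 to 38212053, minus strand), a protocadherin expressed in airway epithelium and other tissues, fell in both tissues. It measured 4.94, 5.28 and 16.5 CPM in colon GFP-positive against 43.4, 21.6 and 32.2 CPM in colon GFP-negative libraries, and 3.49, 3.35 and 3.54 CPM in SI GFP-positive against 155, 129 and 60.1 CPM in SI GFP-negative libraries. Neither pair of groups overlapped. The log2 difference was -1.86 ± 0.48 in the colon (adjusted p = 0.0302) and -5.04 ± 0.54 in the SI (adjusted p = 0.000329), and the effects differed by 3.18 ± 0.68 (adjusted p = 0.0365, or 0.0582 with replicates as a block). In GFP-negative cells the colon was lower by a log2 difference of -1.82 ± 0.46 (adjusted p = 0.0487, or 0.0553 with replicates as a block). The SI call was kept in each fit that left out 1 library. The colon call was lost without colon GFP-positive replicates 1 (adjusted p = 0.113) or 2 (0.135) or colon GFP-negative replicates 1 (0.106) or 3 (0.0777). The difference between tissues was lost in 8 of 12 fits, with adjusted p from 0.0504 (without colon GFP-positive replicate 3) to 0.0996 (without SI GFP-positive replicate 3), and the GFP-negative call in 5 of 6, all but that without SI GFP-negative replicate 3, from 0.0794 (without SI GFP-negative replicate 2) to 0.194 (without colon GFP-negative replicate 2). Pcdh1 is also transcribed in epithelia, and the epithelial list given above moved the same way in the SI. None of its 12 markers was called in the colon GFP comparison. Between GFP-negative cells the sum of the list was higher in the colon, where Pcdh1 was lower, at 1158 to 2784 CPM against 320 to 1091 CPM. Of the 12, 1 was called there, lower in the colon. The part of the list in the Pcdh1 result was not tested.

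Pcdh18 (ENSMUSG00000037892, chromosome 3, 49743296 to 49757325, minus strand) was the member that rose in GFP-positive cells. It measured 54.3, 41.9 and 59.3 CPM in colon GFP-positive against 82.3, 94.8 and 124 CPM in colon GFP-negative libraries, and 100.2, 74.3 and 157 CPM in SI GFP-positive against 39.2, 67.3 and 39.1 CPM in SI GFP-negative libraries. The order of the groups was thus opposite in the 2 tissues, without overlap in either. The log2 difference was -0.95 ± 0.30 in the colon (adjusted p = 0.0718, not called) and 1.19 ± 0.30 in the SI (adjusted p = 0.0226, or 0.0592 with replicates as a block). The colon difference was called by DESeq2 (0.0184) and by edgeR with no filter (0.0306) or with the colon libraries alone (0.00412). It was not called with replicates as a block (0.123). The effects differed by -2.14 ± 0.42 (adjusted p = 0.0253, or 0.0626 with replicates as a block). The SI call was lost without SI GFP-positive replicate 3 (adjusted p = 0.0938) or SI GFP-negative replicates 1 (0.0799) or 3 (0.0723), and the difference between tissues in 8 of 12 fits, with adjusted p from 0.0504 (without colon GFP-positive replicate 3) to 0.0783 (without colon GFP-negative replicate 3). Between GFP-positive cells the log2 difference of colon and SI was -1.09 ± 0.30 (adjusted p = 0.0609, and 0.0327 without SI GFP-positive replicate 2), and without SI GFP-negative replicate 2 Pcdh18 was called higher in colon than in SI GFP-negative cells (1.37, 0.0204). Fibroblast markers moved with Pcdh18 in the SI, at 48244 to 72388 CPM in GFP-positive and 8970 to 24831 CPM in GFP-negative libraries with 9 of 10 called higher and none at 0 throughout a group, and their part in the result was not tested.

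Pcdh17, a delta protocadherin of the nervous system, fell in SI GFP-positive cells, with 4.63 ± 0.389 CPM against 47.6 ± 41.0 CPM (SD, n = 3 each) and a log2 difference of -3.36 ± 0.67 (adjusted p = 0.00801) that was kept in each fit that left out 1 library. All 7 tested glial markers were also lower there, with the sums given for Itga7, and so were 4 of 10 blood endothelial markers, which summed to 656 to 2318 CPM in SI GFP-positive and 1104 to 4199 CPM in SI GFP-negative libraries with none at 0 throughout a group. Their part in the Pcdh17 result was not tested. In the colon it averaged 16.998 ± 4.97 CPM in GFP-positive and 12.7 ± 8.55 CPM in GFP-negative cells. The difference between tissues was 3.79 ± 0.90 (adjusted p = 0.0571), with a call under the replicate block (0.046) and without SI GFP-negative replicates 2 (0.0433) or 3 (0.0167) or colon GFP-negative replicate 1 (0.0403). Pcdh12, a protocadherin of endothelium also called VE-cadherin-2 (chromosome 18, 38267089 to 38284402, minus strand), measured 69.6, 85.6 and 75.3 CPM in colon GFP-positive against 40.8, 40.1 and 30.4 CPM in colon GFP-negative libraries, and 47.5, 84.1 and 21.6 CPM in SI GFP-positive against 39.3, 43.9 and 14.8 CPM in SI GFP-negative libraries. The colon groups did not overlap, but the log2 difference of 1.05 ± 0.45 was not called (adjusted p = 0.217). It was called with replicates as a block (adjusted p = 0.00962) and in a fit of the colon libraries alone (0.000628). The 10 blood endothelial markers summed to 1992 to 2231 CPM in colon GFP-positive and 312 to 1262 CPM in colon GFP-negative libraries, with 5 called higher, 2 lower and none at 0 throughout a group, and their part was not tested. Pcdh19 averaged between 26.9 and 32.4 CPM in the 4 groups, and Pcdh10, Pcdh15 and Pcdh20 at most 6.96 CPM in a group. With all 12 libraries, the filter on low counts and no block, edgeR called none of these 4. DESeq2 called Pcdh15 lower in colon than in SI cells (adjusted p = 0.0245 in GFP-positive and 0.0185 in GFP-negative cells), as did edgeR with no filter (0.0403 and 0.0404). Pcdh20 was called higher in colon than in SI GFP-negative cells by DESeq2 (0.0258) and under the replicate block (0.0428). Without SI GFP-positive replicate 2, edgeR called Pcdh15 lower in colon than in SI GFP-positive cells (adjusted p = 0.0477).

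The remaining 9 members were too scarce to test. Cdh9, Cdh12, Cdh16, Cdh18, Cdh20, Cdh23, Cdh24, Cdh26 and Pcdh8 held between 6 and 126 counts over all 12 libraries, at most 59 in 1 library. The 24 counts of Cdh12 all came from SI GFP-negative replicate 1. A member that passed the filter on low counts through the group in which it is high, as Cdh10 did, had to differ. The counts of calls among the 43 are thus a description of those that passed.

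The other genes of the adhesion machinery were taken from 6 lists. Of 26 cytoplasmic partners of integrins, 3 were higher and 2 lower in colon GFP-positive cells, with a median log2 difference of -0.22, and 2 were higher and 3 lower in SI GFP-positive cells, with a median of -0.17, beside -0.03 over all genes. Pxn, or paxillin, averaged 180 ± 16.2 CPM in colon GFP-positive and 55.6 ± 4.74 CPM in colon GFP-negative cells (log2 1.70 ± 0.30, adjusted p = 0.00304), kept in each fit that left out 1 library. Parvb, or beta-parvin, averaged 69.8 ± 11.2 CPM against 7.29 ± 3.79 CPM there (log2 3.27 ± 0.69, adjusted p = 0.0129), lost without colon GFP-negative replicates 2 (0.0657) or 3 (0.0649). Of 11 tested catenins and plakophilins, which tie cadherins to the cytoskeleton, Arvcf alone was called, lower in SI GFP-positive cells with 40.4 ± 3.66 CPM against 107.8 ± 48.5 CPM (log2 -1.42 ± 0.28, adjusted p = 0.00632). In the colon edgeR called 0 of them, with 5 at an unadjusted p under 0.05, and DESeq2 called 3. The median log2 difference of that list was 0.07 in the colon and -1.42 in the SI. Of 4 tested desmosomal genes, 0 were called in the colon by edgeR or DESeq2 (median -1.45, with 0 and 1 at an unadjusted p under 0.05) and 2 were lower in the SI (median -3.02), among them Dsp, or desmoplakin, with 1.505 ± 1.45 CPM in GFP-positive against 63.6 ± 33.7 CPM in GFP-negative cells (log2 -5.40 ± 0.88, adjusted p = 0.00366).

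Fat4, a giant atypical cadherin that binds Dchs1, fell in both tissues. It averaged 73.0 ± 6.82 CPM in colon GFP-positive against 551.9 ± 75.8 CPM in colon GFP-negative cells (log2 -2.92 ± 0.21, adjusted p = 3.74e-05), and 85.4 ± 3.54 CPM in SI GFP-positive against 357.5 ± 85.9 CPM in SI GFP-negative cells (log2 -2.07 ± 0.21, adjusted p = 0.000183). Both calls were kept in each fit that left out 1 library, as was that of Fat1 in the colon, with 307 ± 24.1 against 768 ± 47.4 CPM (log2 -1.32 ± 0.25, adjusted p = 0.0051). Of 8 tested atypical cadherins, 0 were higher and 2 lower in the colon (median -0.90), and 1 was higher and 2 were lower in the SI (median -0.20). Of 7 tested cadherin-related genes, 1 was higher and 1 lower in the colon (median -1.54) and 2 were lower in the SI (median -1.49), namely Cdhr5 and Cdhr2, cadherins of the enterocyte brush border. Cdhr5 averaged 0.229 ± 0.199 CPM in SI GFP-positive against 34.9 ± 11.7 CPM in SI GFP-negative cells (log2 -7.16 ± 0.86, adjusted p = 0.000627).

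Of 17 tested integrin ligands other than collagens and laminins, 2 were higher and 3 lower in colon GFP-positive cells (median -0.58), and 2 were higher and 3 lower in SI GFP-positive cells (median 0.25). The GFP effects on Postn, or periostin, a ligand of Itgav dimers, differed between the tissues by -2.94 ± 0.39 (adjusted p = 0.00454). It averaged 757 ± 132 CPM in colon GFP-positive against 3059 ± 231 CPM in colon GFP-negative cells (log2 -2.02 ± 0.28, adjusted p = 0.000843), kept in each fit that left out 1 library. Fn1, or fibronectin, averaged 2803 ± 258 CPM against 7140 ± 1041 CPM there (log2 -1.35 ± 0.29, adjusted p = 0.0103), lost without colon GFP-positive replicate 1 (0.0663) or colon GFP-negative replicate 2 (0.052). Madcam1, the ligand of the Itga4 and Itgb7 dimer, was lower in SI GFP-positive cells, with 0.416 ± 0.72 CPM against 45.6 ± 25.8 CPM (log2 -6.60 ± 1.53, adjusted p = 0.0211), a call lost without SI GFP-positive replicates 2 (0.0718) or 3 (0.069) or SI GFP-negative replicate 1 (0.0594).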

How the data were processed

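RNA sequencing of 12 libraries in 4 groups of 3 was read from 2 deposited tables with 32052 genes. The submitters' processing notes name Salmon 1.1.0, R 3.6.1 and the build mm10. The annotation, filters, rounding and strand setting are not given in the sources used here. The authors' deposited expected counts are whole in 100% of cells, as rounding would leave them. Their other deposited table holds log2(TPM + 1). Protein-coding genes take 4.63% to 8.07% of that TPM, so levels between genes were rescaled over protein-coding genes. Symbols, positions and biotypes came from GENCODE M21 (GRCm38), which matched 31974 identifiers and left 78 without a symbol.

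Counts were tested in R 4.3.3 with edgeR 4.0.16 (quasi-likelihood, robust), with TMM factors, filterByExpr at a minimum count of 10 and 1 mean per group over all 12 libraries. That left 16757 genes, over which p-values were adjusted by Benjamini-Hochberg, with a threshold of 0.05. The steps were tested on simulated data. SE are the log2 difference divided by the root of F. Where a group had no count, 3 counts for that group served as the floor. Alternatives were DESeq2 1.42.0, limma 3.58.1 on the deposited log2 scale, RLE factors, no filter, fits of the libraries compared alone, the replicate number as a block, and leaving out each library.

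Same-numbered SI GFP-positive and GFP-negative libraries deviated together (r = 0.323, 0.179 and 0.166 for replicates 1 to 3, on log2 CPM), so the numbers were taken to pair them. The colon values were 0.00933, 0.0465 and 0.0903, so the numbers were not taken to pair those libraries, although replicates 2 and 3 each share a prefix in the column names whose meaning is not stated. Between colon and SI they were 0.0204, 0.0496 and 0.0540 in GFP-positive and 0.0976, 0.0281 and 0.223 in GFP-negative libraries. The main fit used no pairing, so the SI calls come from an unpaired fit and the block is an alternative. No replicate pair agreed within sampling noise.

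The members and lists were chosen with earlier results of these data known. By rule, each comparison's 6 called members with the smallest adjusted p and the most abundant member of each subfamily are given library by library, the other members by group values, and of each related list and comparison at most the 4 called genes with the smallest adjusted p. Differences of members without a call were printed after their values were seen. The single value of 1 glial marker is not reported here.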

Additional observations from a re-analysis of the deposited data

Results flagged for a closer look

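The GFP effect of 5 members differed between the tissues by the test of that difference (colon effect minus SI effect, edgeR's quasi-likelihood test, 12 libraries). The log2 difference of the effects was 5.33 for Itgb4 (adjusted p = 0.00679), 3.22 for Itga6 (0.00718), -2.14 for Pcdh18 (0.0253), 3.18 for Pcdh1 (0.0365) and 3.47 for Itga7 (0.0424). Itgb4 and Itga6 kept the call without any 1 library, with adjusted p of at most 0.0345 and 0.0313. The other 3 lost it in 8 or 9 of 12 such fits. With replicates as a block, the numbers being taken as pairs in the SI, Itgb4 and Itga6 kept the call and the adjusted p was 0.0626 for Pcdh18, 0.0582 for Pcdh1 and 0.154 for Itga7. Pcdh18 was higher in SI GFP-positive and lower in colon GFP-positive libraries than in their GFP-negative libraries, without overlap in either tissue.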

How the results depend on the processing

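The counts of called members (10 in the colon GFP comparison, 16 in the SI GFP comparison, 5 for the difference of effects, 6 between GFP-positive and 4 between GFP-negative cells of colon and SI) were identical with RLE factors. DESeq2 gave 12, 18, 11, 12 and 16, no filter 7, 13, 6, 9 and 4, and limma on log2(TPM + 1) 4, 4, 0, 2 and 7 in that order. Over all genes the main fit called 1456, 1821, 345, 765 and 706 of 16757. DESeq2 called 2138, 2673, 1095, 1430 and 1666. With no filter 1386, 1783, 514, 812 and 755 of 32052 were called, and with limma 1154, 671, 160, 376 and 1509. In the limma fit of the difference of effects, 160 of all 16757 genes were called, and 11 members had an unadjusted p under 0.05. That scale moved the median of all genes to 0.13 (GFP-positive) and 0.19 (GFP-negative) in the tissue comparisons. Fits of the libraries compared alone gave 13, 11, 9 and 2, the difference of effects having no such fit. Beside these, 3016 of 14633, 850 of 15367, 962 of 14547 and 406 of 15205 genes tested were called. The replicate block gave 11, 15, 4, 7 and 7, beside 1535, 1931, 330, 853 and 944 of all 16757 genes. Beside other changes given with the members, it added Pcdh12 in the colon and Pcdh17 between GFP-positive cells. Between GFP-negative cells it added Cdh2, Itga5, Pcdh17 and Pcdh20 and lost Pcdh1. It changed no other call of a member. Leaving out 1 library gave 5 to 8, 12 to 18, 2 to 10, 4 to 9 and 0 to 6. The 0 came without colon GFP-negative replicate 3. Over all genes these fits called 816 to 1140, 1239 to 2644, 69 to 1044, 416 to 613 and 187 to 1229. No called log2 difference of a member moved by over 1.5 times without 1 library. With no filter the colon calls of Cdh2 (adjusted p = 0.0548), Itga4 (0.108), Itga8 (0.117) and Pcdh1 (0.098), the SI calls of Itga3 (0.0533), Itgb3 (0.0654) and Itgb6 (0.0504), the difference of effects of Pcdh1 (0.0808) and the GFP-negative calls of Itgav (0.0775) and Pcdh1 (0.128) were lost. In fits of the libraries compared alone, Pcdh1 (0.0589) was lost in the colon, Cdh13 (0.144), Itga4 (0.101), Itgb3 (0.200) and Pcdh18 (0.110) in the SI, and Cdh13 (0.0501) and Itgav (0.131) between GFP-negative cells. Of 2773 values of tested members over all alternatives and comparisons, 126 changed sign, 14 of them without SI GFP-negative replicate 3, and in none was the member called with or without the change. Without that library Itgae in the SI was 1.55, and Itga4, Itgal and Itgax between GFP-negative cells were 0.36, 0.52 and 2.06. The sign also changed for Cdh17 in the difference of effects on the log2(TPM + 1) scale (-0.15) and for Itgax in the SI, which ran between -10.38 and 1.40 over the fits without 1 library and was positive without SI GFP-negative replicate 3. The causes were not tested. With 3 libraries per group, members of few counts, such as Itgb6 and Cdh10, are limited by depth.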
